A study of Mus musculus with 6 samples.

Results

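The expression of 10 genes that govern entry into the cell cycle was followed in muscle stem cells (MuSCs) from mice given resolvin D1 (RvD1), a lipid mediator made from docosahexaenoic acid, or vehicle. The genes are the D cyclins Ccnd1, Ccnd2, and Ccnd3, the cyclin-dependent kinase (CDK) inhibitors Cdkn1a, Cdkn1b, Cdkn2a, and Cdkn2c, the retinoblastoma gene Rb1, and Trp53 with its regulator Mdm2. They were matched by symbol, and all 10 were found among the 49671 genes quantified. Libraries came from female C57BL/6 mice aged 4 to 6 months with no transgene or deletion named, 3 treated with RvD1 and 3 with vehicle. Every mouse received 50 μL of 1.2% BaCl2 in the tibialis anterior (TA) muscles, which destroys myofibers, and cells were taken on day 3. Treated mice were injected IP each day with 100 ng RvD1 in saline with 0.1% ethanol, and control mice with the 0.1% ethanol vehicle alone. Cells from both TA muscles of a mouse were pooled into 1 library after FACS for β1-integrin and CXCR4, with Sca-1, CD11b, Ter119, and CD45 positive cells removed, and the sample labels also name CD31. Uninjured MuSCs were not analysed here, and the values describe cells at a single time after injury.

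D cyclins are made when growth factors reach a cell, and they activate Cdk4 and Cdk6. These kinases phosphorylate the Rb protein, which then releases E2F factors that turn on the genes of S phase. The INK4 inhibitors block Cdk4 and Cdk6, the CIP/KIP inhibitors act mainly on Cdk2 complexes, and p53 raises p21, the product of Cdkn1a, when DNA is damaged or cells are stressed. In muscle, MuSCs leave quiescence after injury, divide as myoblasts, and exit the cycle for good as they become myocytes, a step in which p21, cyclin D3, and Rb take part.

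The sorted cells carried RNA of MuSC and myoblast markers, and without uninjured cells their activation could not be compared. Summed levels of 8 MuSC and myoblast markers lay between 1896.6 and 2245.6 TPM (a level corrected for transcript length and scaled to a common library total), and those of 12 leukocyte markers between 44.22 and 98.3 TPM. The 8 markers include Itgb1, at 444 to 524 TPM, and Cxcr4, which encode the antigens used in the sort. They also include Pax7, at 4.03 to 8.5 TPM. Myocyte markers, which include Myog, summed to between 2052.3 and 3485.2 TPM, and 10 markers of S phase and mitosis to between 2298.3 and 3434.7 TPM. Endothelial markers summed to between 3.40 and 12.01 TPM and erythroid markers to between 11.3 and 94.5 TPM. Fibro-adipogenic markers, which include the abundant collagens Col1a1 and Col3a1, summed to between 725 and 1686 TPM. Of these 6 genes, 5 had a log2 fold change above 0, as did 7749 of the 14494 genes tested. The exception was Ly6a, which encodes the Sca-1 antigen removed in the sort, at -0.62 (SE 0.20, edgeR unadjusted p = 0.0141, adjusted p = 0.971). For Ly6a all RvD1 libraries lay below all vehicle libraries. Without RvD1 replicate 1, 3 of the 6 fibro-adipogenic genes lay above 0, and the list's median went from 0.29 to -0.03. Thus RNA typical of dividing and of differentiating cells was present together in each library. In such bulk samples a smaller number of cells of one kind and a smaller amount of RNA per cell cannot be told apart. Of the leukocyte markers, 11 of 11 tested genes had a log2 fold change below 0 with RvD1, where 46.5% of all genes tested did, and 3 of them, Lyz2, C1qb, and Tyrobp, were at an unadjusted edgeR p under 0.05, where 3.47% of all genes were. The summed leukocyte level was 44.22 to 65.88 TPM with RvD1 and 58.63 to 98.3 TPM with vehicle, and no marker on that list was at 0 in every library. Without RvD1 replicate 3, 9 of 11 lay below 0. Expected counts ranged from 6 to 25 for Ptprc and 12 to 31 for Tyrobp to 235 to 909 for Lyz2. Of the endothelial markers, 5 of 6 lay below 0 (median -1.17), and of the erythroid markers 3 of 3 tested (median -0.43). Without vehicle replicate 3 the endothelial median was -0.33, and without RvD1 replicate 1, 1 of 4 erythroid genes lay below 0. The part of leukocyte, endothelial, erythroid, and fibro-adipogenic RNA in the values below was not tested. Libraries held between 16148026 and 28149176 expected counts, and a floor of 3 counts corresponded to 0.107 to 0.186 CPM (counts scaled to the library total), where the floor and the Poisson intervals cover counting error only.

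The 10 genes spanned a 277-fold range of level, from Cdkn1a at a mean of 725 TPM over the 6 libraries to Cdkn2a at 2.61 TPM. Cdkn1a, which encodes the CDK inhibitor p21, stood 3.04-fold above the next gene. Ccnd3 followed at 238.5 TPM, Trp53 at 169 TPM, and Mdm2 at 142 TPM. Ccnd1 was at 74.0 TPM, Rb1 at 51.2 TPM, Cdkn2c at 35.4 TPM, Ccnd2 at 16.6 TPM, and Cdkn1b at 3.89 TPM. Thus the most abundant transcript came from a CDK inhibitor gene and the second from a D cyclin gene. Neighbors in this order had ranges that did not overlap, with 2 exceptions. Trp53 exceeded Mdm2 in 5 of 6 libraries, and Cdkn1b exceeded Cdkn2a in 6 of 6 although their ranges overlapped. When levels were instead taken as counts per kilobase of the longest annotated transcript, Mdm2 took rank 3 and Trp53 rank 4, and the ranks of the other 8 genes stayed as they were. For Trp53 that transcript has 3275 bases and is not coding, and its longest coding transcript has 1867 bases. For Mdm2 the longest transcript, of 3145 bases, is coding. Spread between libraries in TPM was smallest for Trp53, with a coefficient of variation of 6.11%, and largest for Cdkn2a and Ccnd2, at 29.7% and 29.6%. In log2 CPM, the distance from the lowest to the highest library was 0.186 for Rb1, 0.245 for Ccnd3, and 0.322 for Trp53.

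**Figure D1:**
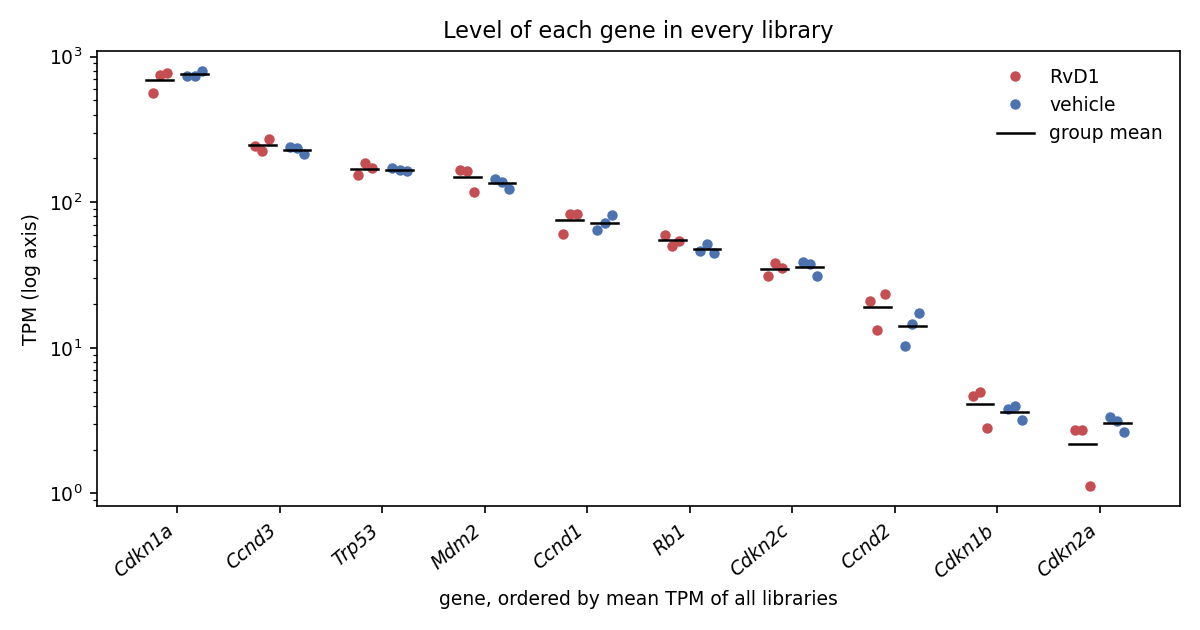
Level of each of the 10 genes in every library, in TPM on a log axis, with genes ordered by their mean over all libraries. Points are libraries, with RvD1 in red and vehicle in blue, and bars are group means. Cdkn1a lies between 559 and 790 TPM and Cdkn2a between 1.13 and 3.33 TPM, and in TPM the points of both groups overlap for each of the 10 genes.

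Comparison of RvD1 with vehicle addresses whether the treatment changed the expression of these regulators in MuSCs on day 3. None of the 10 genes passed the test for a change. In the edgeR test across all genes, 0 of 10 had an adjusted p under 0.05, where 0% of the 14494 genes tested did, and the smallest adjusted p of any gene was 0.971. At an unadjusted p under 0.05 the count was also 0 of 10, against 3.47% of all genes tested. Fold changes lay above 0 for 5 genes and below 0 for 5, with a median log2 fold change of 0.0004 beside 0.01 for all genes. In normalized counts, the libraries of both groups did not overlap for 1 of the 10 genes, Cdkn2a, where 9.62% of all genes showed such a separation. All 10 had enough counts to pass the filter on low values. How much change these data leave room for differed by gene. For Rb1 the 95% interval of the fold change was 0.917 to 1.22, for Ccnd3 0.885 to 1.19, and for Trp53 0.845 to 1.15. It was wider for Cdkn1b at 0.696 to 1.52, for Ccnd2 at 0.814 to 1.80, and for Cdkn2a at 0.368 to 1.32.

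**Figure D2:**
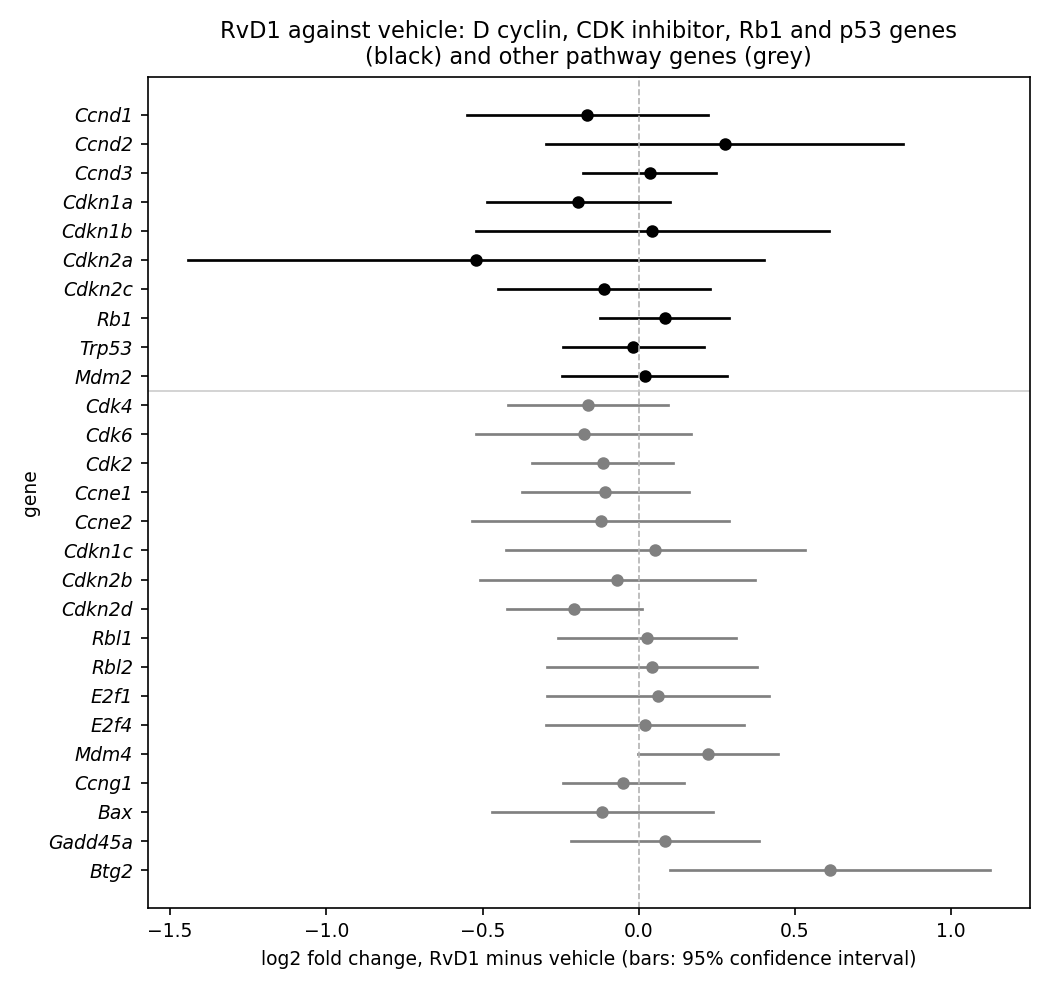
Log2 fold change of RvD1 against vehicle from edgeR for the 10 genes (black) and for 17 other genes of the same pathways (grey), with bars showing 95% confidence intervals and a dashed line at 0. All black intervals cross 0, the widest being that of Cdkn2a from -1.44 to 0.40, and in grey the interval of Btg2 lies above 0 before adjustment.

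Among the D cyclins, Ccnd3 was the main transcript. Ccnd3 lies at chr17:47505051-47599691 of GRCm38 on the plus strand and encodes cyclin D3, which accumulates in myoblasts as they differentiate. Its level was 242, 226, and 274 TPM in RvD1 replicates 1 to 3 and 238, 235, and 215 TPM in vehicle replicates 1 to 3. The highest value belonged to an RvD1 library and the lowest to a vehicle library, but the groups overlapped. The log2 fold change was 0.03 (SE 0.09, edgeR adjusted p = 0.978). Ccnd3 made up 72.3 ± 2.35% (SD, n = 3) of D cyclin TPM with RvD1 and 72.6 ± 3.82% (SD, n = 3) with vehicle, and between 68.6% and 76.2% in single libraries.

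Ccnd1, at chr7:144929931-144939925 on the minus strand, encodes cyclin D1, the form most closely tied to mitogen signaling. Its level was 60.7, 83.1, and 82.9 TPM with RvD1 and 64.0, 72.4, and 81.2 TPM with vehicle. RvD1 replicate 1 was low beside the other RvD1 libraries, and the vehicle values were evenly spread. In normalized CPM, the scale of the test, the values were 84.2, 123, and 123 with RvD1 and 103, 125, and 142 with vehicle. The counts gave a log2 fold change of -0.16 (SE 0.17, edgeR adjusted p = 0.971), whereas log2 of TPM gave 0.05. The 2 scales differed in sign and neither reached the threshold. The median of all genes was 0.0769 on log2 of TPM and 0.0145 in counts, so Ccnd1 lay below the median on both. Without RvD1 replicate 1 the counts gave -0.0038, and without vehicle replicate 3 they gave -0.05. The scales differ in part by the transcript length used by the authors' quantification. Recovered here from count and FPKM, it was 2360, 2381, and 2491 bases in the RvD1 libraries and 2608, 2665, and 2701 bases in the vehicle libraries. All 3 RvD1 libraries were below all 3 vehicle libraries. Of 9 genes for which this length could be compared, 1, Ccnd1, was separated in either direction, and 11.3% of 11265 genes were. Ccnd1 has 3 annotated transcripts, of which 1 is coding, and LTO1 overlaps it on the opposite strand. The library kit does not keep strand, so reads in bases that overlapping genes share cannot be told apart by strand. Ccnd2, Ccnd3, Cdkn1a, and Rb1 also overlap genes on the opposite strand. Bysl had 1021 to 2095 expected counts beside 4529 to 7504 for Ccnd3, and Rcbtb2 had 1308 to 2022 beside 1871 to 3464 for Rb1. How many reads were shared was not tested.

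Ccnd2, at chr6:127125162-127152193 on the minus strand, encodes cyclin D2 and was the least abundant D cyclin. Its level was 20.9, 13.2, and 23.4 TPM with RvD1 and 10.3, 14.5, and 17.4 TPM with vehicle. The 2 highest libraries were RvD1 replicates 3 and 1 and the lowest was vehicle replicate 1, with the rest interleaved. Its log2 fold change of 0.28 (SE 0.25, edgeR adjusted p = 0.971) was the largest upward value of the 10 genes. Without vehicle replicate 1 or without RvD1 replicate 1 it was 0.09. In summed D cyclin TPM, RvD1 libraries gave 324, 322, and 380.0 and vehicle libraries 312, 322, and 314, and RvD1 replicate 3, the highest in TPM for both Ccnd3 and Ccnd2, stood above the other libraries.

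**Figure D3:**
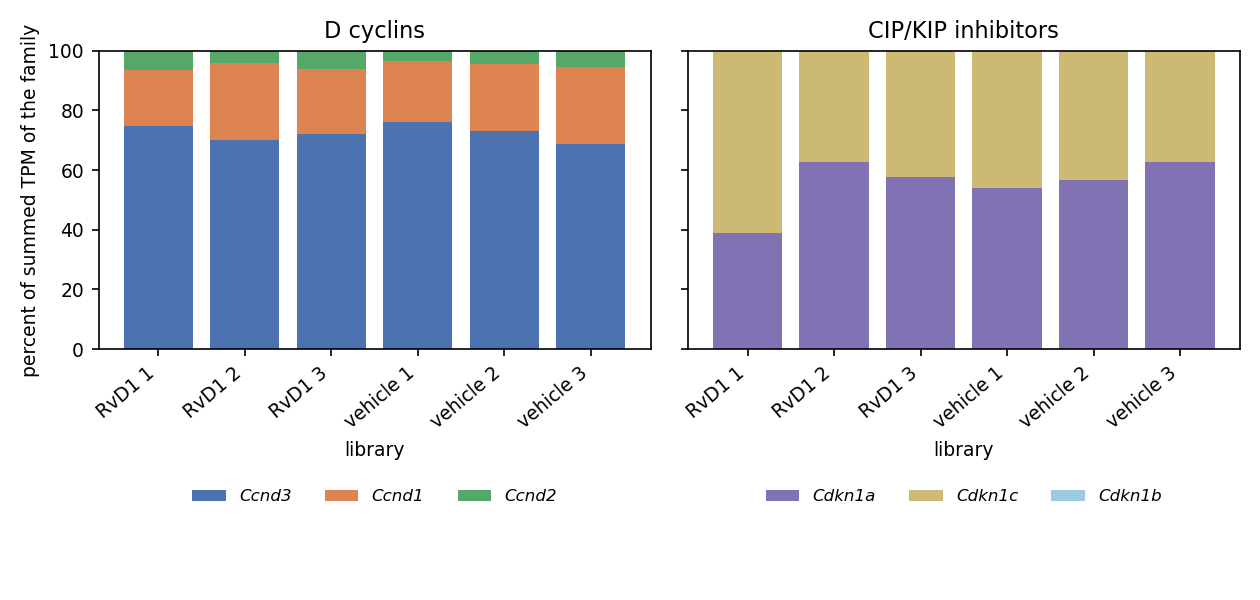
Share of each gene in the summed TPM of its family in every library, in percent, for the D cyclins (left) and the CIP/KIP inhibitors (right), with bars stacked from 0 to 100. Ccnd3 takes 68.6% to 76.2% of the D cyclins in all libraries. Cdkn1a takes 39.0% of the CIP/KIP family in RvD1 replicate 1 and at least 54.1% elsewhere, and Cdkn1b is at most 0.416% and too thin to see.

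Cdkn1a, at chr17:29090976-29100727 on the plus strand, encodes p21, which stops Cdk2 and is raised both by p53 and by MyoD in myoblasts that differentiate. Its level was 559, 743, and 777 TPM in RvD1-treated mice and 741, 739, and 790 TPM in controls. RvD1 replicate 1 was low and the other 5 libraries lay within 739 to 790 TPM. The log2 fold change was -0.19 (SE 0.13, edgeR adjusted p = 0.971), and the unadjusted p of 0.168 was the smallest of the 10 genes. Without RvD1 replicate 1 the log2 fold change was -0.06. The CIP/KIP family held nearly no other transcript than Cdkn1a and Cdkn1c. Cdkn1c encodes p57, which also holds cells out of the cycle, and in RvD1 replicate 1 it was high where Cdkn1a was low. Cdkn1c had 870 TPM in that library, against 439 and 569 TPM in the other RvD1 libraries and 625, 561, and 470 TPM with vehicle. Its log2 fold change was 0.05 with all libraries and -0.24 without RvD1 replicate 1.

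Cdkn1b, at chr6:134920401-134925513 on the plus strand, encodes p27, which keeps Cdk2 inactive in resting cells. It had 4.65, 4.94, and 2.80 TPM with RvD1 and 3.81, 3.97, and 3.18 TPM with vehicle, so RvD1 libraries were both the highest and the lowest. The log2 fold change was 0.04 (SE 0.25, edgeR adjusted p = 0.992). Cdkn1a exceeded it by 120-fold to 277-fold in TPM within a library. p27 is known to be regulated largely through its protein, which was not measured here.

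The INK4 inhibitors among the 10 genes were Cdkn2c and Cdkn2a. Cdkn2c, at chr4:109660876-109667189 on the minus strand, encodes p18, which binds Cdk6 and Cdk4. It had 31.4, 38.3, and 35.1 TPM with RvD1 and 39.0, 37.7, and 31.0 TPM with vehicle. The groups covered almost the same range, and the log2 fold change was -0.11 (SE 0.15, edgeR adjusted p = 0.971). Cdkn2c and Cdkn2d, which encodes p19Ink4d, together held most INK4 RNA. With RvD1 their shares of INK4 TPM were 38.6 ± 3.04% and 51.5 ± 3.14% (SD, n = 3), and with vehicle 37.5 ± 2% and 52.3 ± 2.23% (SD, n = 3).

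Cdkn2a, at chr4:89274471-89294653 on the minus strand, encodes p16Ink4a and, from another first exon, p19Arf, which blocks Mdm2. It is best known for rising in senescent cells, including MuSCs of very old mice. It was near the limit of what these libraries measured. Expected counts were 29, 39, and 10 with RvD1 and 27, 29, and 26 with vehicle, and the 10 counts of RvD1 replicate 3 have an exact 95% Poisson interval of 4.8 to 18.4. In TPM the values were 2.71, 2.74, and 1.13 with RvD1 and 3.33, 3.13, and 2.64 with vehicle. RvD1 replicate 3 was far below the rest, the others were close, and the groups overlapped in TPM although not in normalized CPM. The log2 fold change of -0.52 (SE 0.41, edgeR adjusted p = 0.971) was the largest of the 10 in size and was -0.23 without RvD1 replicate 3. The deposited table has 1 value per gene, and transcripts of both products are summed in it. The windows before both starts are printed from RefSeq on GRCm38.p6, without bases that GENCODE places in an exon, to show that the pooled value covers unlike promoters. Capitals mark an E2F motif (TTTCGCGC, TTTGGCGC, TTTCCCGC, or TTTGCCGC, on either strand), which occurs in 1.86% of 32851 windows of 250 bases before RefSeq starts. The upstream window (chr4:89294654-89294869, minus strand), which precedes the p19Arf exon, holds 1 match, and the downstream window (chr4:89282193-89282442, minus strand), which precedes the p16Ink4a exon, holds none.
Cdkn2a upstream start: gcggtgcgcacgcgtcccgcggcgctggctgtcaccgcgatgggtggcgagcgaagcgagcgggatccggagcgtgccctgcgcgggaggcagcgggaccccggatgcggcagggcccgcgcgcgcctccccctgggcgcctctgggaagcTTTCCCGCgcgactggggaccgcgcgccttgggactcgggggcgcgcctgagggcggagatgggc
Cdkn2a downstream start: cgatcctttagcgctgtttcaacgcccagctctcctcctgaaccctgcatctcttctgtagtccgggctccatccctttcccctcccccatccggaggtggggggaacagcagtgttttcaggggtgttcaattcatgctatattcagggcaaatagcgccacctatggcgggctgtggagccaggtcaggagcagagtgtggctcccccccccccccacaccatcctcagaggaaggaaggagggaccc

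Rb1, at chr14:73183673-73325822 on the minus strand, encodes the protein that holds E2F factors in check and that D cyclin kinases inactivate. Its level was 59.9, 50.04, and 54.3 TPM with RvD1 and 46.0, 51.8, and 45.0 TPM with vehicle. In TPM, RvD1 replicates 1 and 3 were the highest, and vehicle replicate 2 lay above RvD1 replicate 2. In normalized CPM, the scale of the test, vehicle replicate 2 was the highest at 131.9, beside 131.7 and 129.8 in RvD1 replicates 1 and 3. The log2 fold change was 0.08 (SE 0.09, edgeR adjusted p = 0.971). Its relatives Rbl1 and Rbl2, which encode p107 and p130, had log2 fold changes of 0.03 and 0.04.

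Trp53, at chr11:69580359-69591873 on the plus strand, encodes p53 and had the smallest coefficient of variation in TPM. Its level was 154, 185, and 170 TPM with RvD1 and 171, 167, and 164 TPM with vehicle, so the vehicle libraries lay inside the RvD1 range. The log2 fold change was -0.02 (SE 0.10, edgeR adjusted p = 0.992). p53 is controlled mostly by the stability of its protein, so its transcript says little about its activity. The processed copy Trp53-ps had 23.84 to 37.48 expected counts and may share reads with Trp53.

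Mdm2, at chr10:117688875-117710758 on the minus strand, encodes the ubiquitin ligase that removes p53 and is itself a p53 target. Its level was 167, 163, and 118 TPM with RvD1 and 145, 138, and 123 TPM with vehicle. Here RvD1 libraries were the 2 highest and the lowest, and the log2 fold change was 0.02 (SE 0.12, edgeR adjusted p = 0.992). The ratio of Mdm2 to Trp53 in TPM was 1.08, 0.880, and 0.690 with RvD1 and 0.848, 0.826, and 0.747 with vehicle, and the groups overlapped.

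Windows before the starts of Cdkn1a, Mdm2, and Trp53 are shown because they are the 3 among 7 genes of the set with a window in the RefSeq table that hold a p53 half-site, the decamer that p53 binds in pairs. Cdkn1b, Cdkn2a, Cdkn2c, and Ccnd3 have windows without it. Capitals mark the half-sites, which were searched on both strands and occur in 7.13% of all 32851 windows. Bases within a GENCODE exon, of Cdkn1a itself or of Wrap53 beside Trp53, were left out of the printed runs. The window before the upstream start of Cdkn1a (chr17:29090729-29090975, plus strand) holds 2, as do 0.259% of all windows, and the window of its downstream start holds none. Mdm2 (chr10:117710759-117711008, minus strand) and Trp53 (chr11:69580256-69580358, plus strand) hold 1 each. A match describes the letters and not the binding of p53, which was not measured.
Cdkn1a upstream start: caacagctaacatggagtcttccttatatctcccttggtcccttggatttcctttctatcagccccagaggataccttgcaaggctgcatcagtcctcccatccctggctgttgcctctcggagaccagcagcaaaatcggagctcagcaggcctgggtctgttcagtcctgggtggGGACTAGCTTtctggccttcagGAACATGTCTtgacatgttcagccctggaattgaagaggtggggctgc
Mdm2 start: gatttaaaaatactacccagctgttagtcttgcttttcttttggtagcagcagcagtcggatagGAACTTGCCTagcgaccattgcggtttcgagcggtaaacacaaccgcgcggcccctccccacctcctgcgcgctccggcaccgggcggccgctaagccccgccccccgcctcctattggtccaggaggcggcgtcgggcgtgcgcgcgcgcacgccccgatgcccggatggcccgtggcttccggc
Trp53 start: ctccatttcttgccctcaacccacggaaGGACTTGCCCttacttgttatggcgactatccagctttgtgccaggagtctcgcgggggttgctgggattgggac

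Genes that act beside these 10 were also examined. Of the G1 kinases and cyclin E, 6 of 6 genes were tested and 0 passed the adjusted or the unadjusted threshold. All 6 lay below 0, where 46.5% of all genes did, with a median log2 fold change of -0.12 against 0.01 for all genes. This rested on RvD1 replicate 1, since without that library 3 of 6 lay below 0 and the median was -0.01. The S phase and mitosis markers had 10 of 10 below 0, a median of -0.12, and 0 past either threshold, and without the same library 5 of 10 lay below 0 with a median of 0.02. Cdk4, the main partner of D cyclins here by level, had 831, 1063, and 1041 TPM with RvD1 and 1029, 1040, and 1062 TPM with vehicle, which is 1 low RvD1 library and 5 alike. Its log2 fold change was -0.16, and -0.05 without RvD1 replicate 1. Cdk6 had a log2 fold change of -0.18, Cdk2 of -0.12, Ccne1 of -0.11, and Ccne2 of -0.12. Without RvD1 replicate 1 these values were -0.03, -0.03, 0.0066, and 0.05. Cdk4 exceeded Cdk6 in TPM by 22.9-fold to 28.4-fold in every library.

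Of the other CDK inhibitors, 4 of 4 were tested and 0 passed either threshold. Cdkn2d had 34.9, 35.3, and 36.1 CPM with RvD1 and 41.5, 41.3, and 39.8 CPM with vehicle, so the groups did not overlap in normalized counts. In TPM its highest RvD1 library and its lowest vehicle library were both at 48.01. This 1 of 4 genes compares with 9.62% of all genes without overlap in CPM. The log2 fold change of Cdkn2d was -0.21 (SE 0.10, edgeR adjusted p = 0.971). Cdkn2b, which encodes p15, was at -0.07. Of the pocket proteins and E2F factors, 12 of 12 were tested and none passed either threshold, with a median of 0.03. The activator E2f1 was at 0.06 and E2f4, which acts with pocket proteins as a repressor, at 0.02.

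On the p53 side, 8 of 10 regulators and relatives were tested, since Trp63 and Trp73 were too low, and 0 passed either threshold. Mdm4, which restrains p53 beside Mdm2, had 98.1, 81.9, and 94.6 CPM with RvD1 and 80.5, 76.05, and 79.0 CPM with vehicle. The RvD1 libraries were all above the vehicle libraries in CPM, though not in TPM, and the log2 fold change was 0.22 (SE 0.10, edgeR adjusted p = 0.971). Atr, a kinase that signals DNA damage to p53, was separated the other way in both units, with a log2 fold change of -0.19 (SE 0.11, edgeR adjusted p = 0.971). These 2 of 8 genes compare with 9.62% of all genes without overlap in CPM. Of 21 p53 target genes, all were tested, 0 passed the adjusted threshold, and 1 gave an unadjusted p under 0.05, beside 3.47% of all genes. The list's median log2 fold change was 0.05. That gene was Btg2, which encodes an antiproliferative protein and is also an early response gene. It had 75.3, 38.6, and 46.7 CPM with RvD1 and 35.9, 31.6, and 37.7 CPM with vehicle, with no overlap. Ei24 was separated the other way in CPM, at a log2 fold change of -0.17, so 2 of 21 targets showed no overlap, beside 9.62% of all genes. For Btg2 the log2 fold change was 0.61 (SE 0.23, edgeR unadjusted p = 0.0245, adjusted p = 0.971), and 0.28 without RvD1 replicate 1, the highest library. Ccng1, Bax, and Gadd45a, which are commonly used to follow p53, had log2 fold changes of -0.05, -0.12, and 0.08.

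In normalized CPM, RvD1 replicate 1 was the lowest library for Ccnd1, Cdkn1a, Cdkn2c, and Trp53 and the highest for Ccnd2. It was also the lowest of the 6 for 29.5% and the highest for 30.6% of all genes tested. In that library the G1 kinase and cyclin E list averaged 6.87 in log2 CPM, against 7.22 to 7.397 in the other 5, and the S phase and mitosis markers averaged 7.94, against 8.37 to 8.50. Its fibro-adipogenic markers summed to 1686 TPM, against 725 to 1061 TPM elsewhere. The part of these differences in the values of the 10 genes was not tested. RvD1 replicate 3 was the lowest library in normalized CPM for Cdkn1b, Cdkn2a, and Mdm2 and the highest for Ccnd3, where over all genes it was the lowest for 17.3% and the highest for 18.9%. Its myocyte markers summed to 3485 TPM, against 2052 to 2628 TPM elsewhere.

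**Figure D4:**
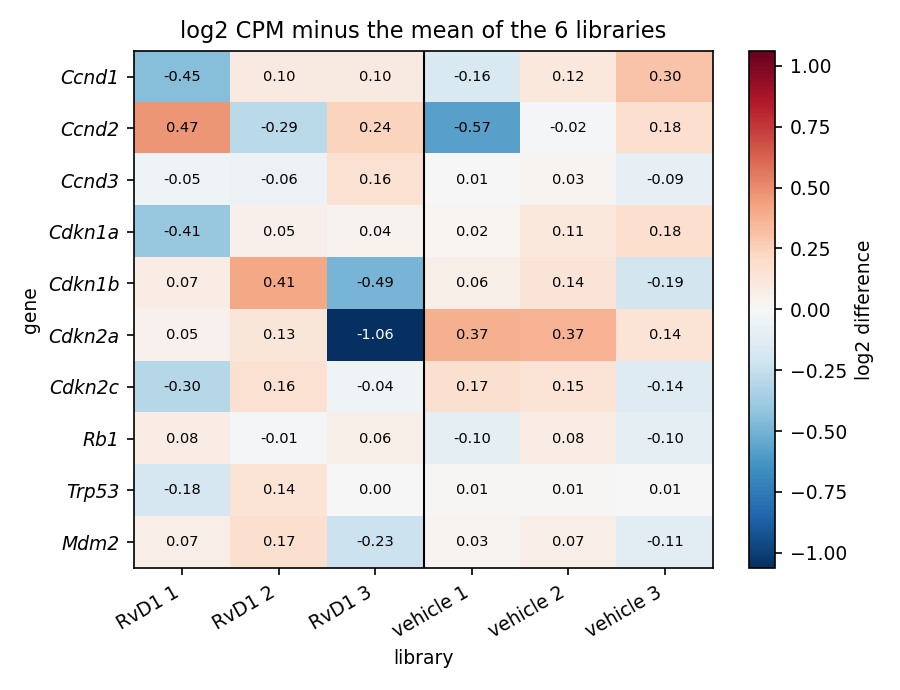
Difference of each gene from its own mean over the 6 libraries, in log2 CPM, with red for higher and blue for lower and a line between RvD1 (left) and vehicle (right). The largest departures are Cdkn2a in RvD1 replicate 3 at -1.06, Ccnd2 in vehicle replicate 1 at -0.575, and Cdkn1b in RvD1 replicate 3 at -0.49, and no gene has one color in all 3 RvD1 and the other in all 3 vehicle libraries.

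Settings of the analysis did not give a call for any of the 10 genes. Under the 9 alternative tests, scalings, and filters and the 6 fits without 1 library, the count with an adjusted p under 0.05 was 0 of 10 each time. Ccnd2 and Rb1 stayed above 0 and Cdkn1a and Cdkn2a below 0 in all of these fits. The signs of Ccnd1, Ccnd3, Cdkn1b, Cdkn2c, Trp53, and Mdm2 depended on the scale or on a single library. The nearest to a call was Cdkn1a after removal of 1 surrogate variable, at a log2 fold change of -0.12 (limma-voom unadjusted p = 0.0206, adjusted p = 0.383). In that setting 11.2% of all genes fell under 0.05 before adjustment, and it gave more false calls than the other tests on simulated counts. The simulated counts had no factor shared between genes and were filtered for this fit. They therefore cannot tell how often that setting errs on the real libraries.

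**Figure D5:**
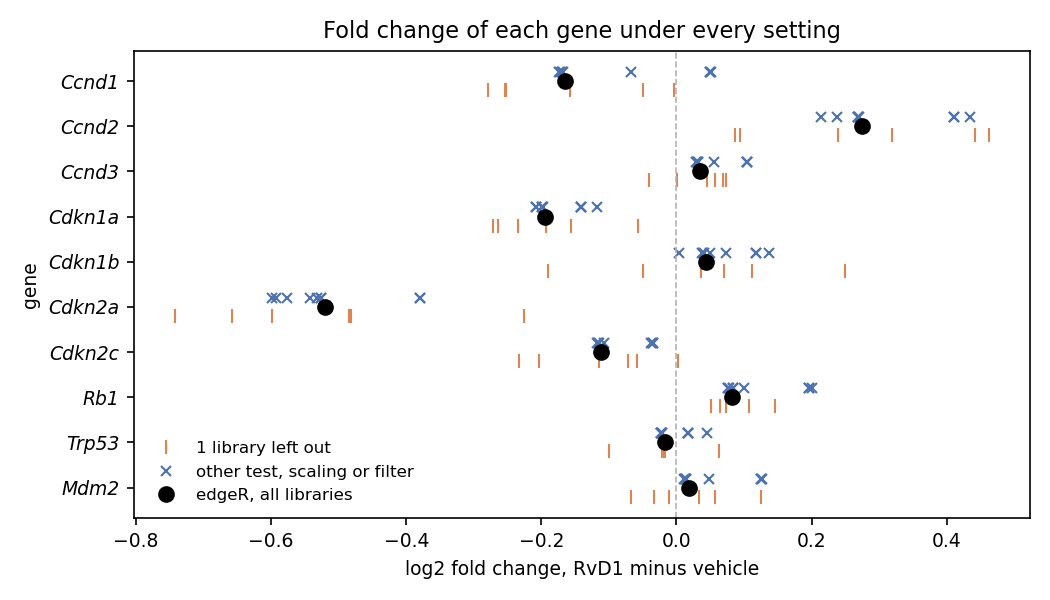
Log2 fold change of RvD1 against vehicle for each of the 10 genes under every setting. Black points are edgeR with all libraries, blue crosses other tests, scalings, or filters, and orange bars fits without 1 library. Cdkn2a moves from -0.74 to -0.23 as single libraries are left out, and the marks of Ccnd1, Ccnd3, Cdkn1b, Cdkn2c, Trp53, and Mdm2 fall on both sides of 0.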

How the data were processed

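RNA-Seq was performed on FACS-sorted MuSCs from 3 RvD1-treated and 3 vehicle-treated mice, with cDNA made by a kit that does not keep strand. The authors mapped the single-ended reads with STAR 2.5.0a (genome mm10) and estimated gene levels with RSEM, whose version and annotation are not given in the sources used here. The deposited expected counts are RSEM estimates that are not scaled for depth. The authors also deposited TPM and FPKM, both corrected for transcript length and library total. The RNA input differs between sample labels and the study's methods.

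Expected counts were rounded and tested with edgeR 4.0.16 (TMM, filterByExpr by group, quasi-likelihood test) in R 4.3.3, where the study used limma-voom. Adjustment followed Benjamini and Hochberg over 14494 genes with a threshold of 0.05, and p values measure the spread between mice. Each standard error is the log2 fold change divided by the root of the F statistic. Column names gave the treatment and number of each mouse. Replicate numbers recur in both groups, but no source pairs the mice, so the number was a block only as an alternative. Other alternatives were RLE factors, DESeq2 1.42.0, no filter, limma 3.58.1 with voom, the same after removal of surrogate variables with sva 3.50.0, limma on log2 TPM with a pseudocount of 1 or 0.1, FPKM levels, and each library left out. Levels per kilobase of the longest transcript and list counts without each library were added after the data were seen. The test scripts were checked on simulated counts. The 10 genes and all gene lists were chosen with earlier results of these data known. Of other pathway genes, 16 direct partners and any with an unadjusted p under 0.05 were named. Atr, Ei24, Ly6a, Pax7, Itgb1, Cxcr4, the leukocyte genes, Trp53-ps, and the overlapping genes were named after their values were seen. Gene positions are from GENCODE M21 on GRCm38, and promoter windows from RefSeq on GRCm38.p6, where 7 of 10 genes matched.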

Additional observations from a re-analysis of the deposited data

How the results depend on the processing

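With 3 mice per group, a median 95% interval of ±0.38 in log2 fold change over all genes limits what could be seen. No setting called any of the 10 genes or any gene of the pathway lists. Over all genes the count called was 0, except 12 without a filter on low counts and, over the fits that left out 1 library, 0 to 1 (1 without RvD1 replicate 3). The count with an unadjusted p under 0.05 was 503, and became 1143 without a filter, 896 with the replicate block, 2973 with surrogate variables removed, 1407 on unfiltered TPM, and 282 to 1016 as libraries were left out (1016 without RvD1 replicate 2, 284 without vehicle replicate 2, and 282 without vehicle replicate 3). The cause was not tested. Among the 10 genes that count was 0, and 1 with surrogate variables removed. Correlations of the deviations of same-numbered libraries were 0.310, -0.001, and 0.126. Their mean was 0.145, and the mean for libraries of different numbers was -0.073. Deviations were taken from the group mean and sum to 0 in each group, so the second mean nearly follows from the first. The second mean is therefore no separate background. Whether same-numbered mice were paired was not tested, and the block changed no call among the 10 genes.

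Of 150 fold changes of the 10 genes under alternatives, 135 kept their direction. On log2 TPM with a pseudocount of 1, filtered or not, Ccnd1 was at 0.0499, Trp53 at 0.0167, Cdkn2b at 0.0112, and Ccng1 at 0.0301. With 0.1 these genes were at 0.0504, 0.0168, 0.0128, and 0.0303. Each of these values lay below the median of all genes, which was 0.0769 with a pseudocount of 1 and 0.0866 with 0.1. In the main fit that median was 0.0145. With surrogate variables removed, Trp53 was at 0.0451, Cdkn1c at -0.0923, and Rbl2 at -0.011. Leaving out single libraries gave both signs for Ccnd3 (-0.041 to 0.0734), Cdkn1b (-0.1903 to 0.2493), Cdkn2c (-0.2332 to 0.0018), Trp53 (-0.0996 to 0.0629), Mdm2 (-0.0666 to 0.1244), Ccne1 (-0.2146 to 0.0066), Ccne2 (-0.3198 to 0.0539), Cdkn1c (-0.2419 to 0.2423), Rbl1 (-0.0632 to 0.1423), Rbl2 (-0.1452 to 0.1505), E2f1 (-0.0394 to 0.2173), E2f4 (-0.0893 to 0.1683), Bax (-0.269 to 0.0404), and Gadd45a (-0.0177 to 0.1788). FPKM left the order of levels unchanged, but it is proportional to TPM within a library and so is no separate check. Counts per kilobase of the longest transcript, which for Trp53 is not coding, placed Mdm2 at 3 and Trp53 at 4.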

Other observations

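Trp53cor1, a noncoding RNA gene also known as lincRNA-p21 that lies beside Cdkn1a and is known to respond to p53, was looked up after the values of the other genes were seen. It had 48.85, 29.85, and 34.00 expected counts in RvD1 replicates 1 to 3 and 10.82, 26.00, and 14.48 in vehicle replicates 1 to 3. Mean levels were 1.75 CPM with RvD1 and 0.968 CPM with vehicle, and its log2 fold change was 0.80 (SE 0.45, edgeR adjusted p = 0.971), with the groups overlapping in normalized counts.

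The transcript length recovered from count and FPKM for Ccnd2 averaged 1220 bases, between 1019 in RvD1 replicate 3 and 1359 in RvD1 replicate 1, where its longest annotated transcript has 6330 bases. For Cdkn1a it averaged 1069 bases beside a longest transcript of 2080 bases, and for Cdkn2a 820 bases beside 895 bases. The gene Gm17233 shares the strand of Rb1, within which it lies, and had 1.03, 5.10, and 1.02 expected counts with RvD1 and 0 in all vehicle libraries, at or near the floor of 3 counts.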
